A study of Saccharomyces cerevisiae with 6 samples.

Results

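Protein glycosylation attaches sugars to proteins of the secretory pathway, and in budding yeast the attached sugar is mostly mannose. The genes described here were the probe sets, other than array controls, whose gene symbol in the platform annotation is ALG, OST or PMT followed by digits, together with WBP1, SWP1, STT3, MNN2, MNN4, MNN5, MNN9, MNN10, MNN11, OCH1, KRE2, KTR1, CWH41, ROT2, PMI40, SEC53 and PSA1. They made up 45 of the 9275 tested probe sets and 42 of the 5656 genes named by a single symbol. The rule uses symbols and no signal, although it was written with earlier results of these data known. ALG3 had 3 probe sets, MNN4 had 2 and the other genes had 1 each. A gene was represented by its probe set with the highest mean over the arrays.

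Total RNA came from 3 cultures of the wild-type strain Y117 and 3 of strain Y118, which carries a point mutation of histone H2B, K123R. That substitution replaces the lysine that is monoubiquitinated with arginine. Early stationary phase cultures of both strains were diluted in YPD rich medium to an optical density of 0.3 and shaken at 30 degrees until, after 7 hours, the density was 2. The RNA of each culture went onto 1 Affymetrix S98 array, which gives 1 signal per probe set. The labels give no other allele. A further genetic difference between Y117 and Y118 cannot be told apart from the mutation.

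N-glycosylation builds an oligosaccharide on the lipid dolichol at the endoplasmic reticulum membrane, first on the cytosolic face and then in the lumen, and the oligosaccharyltransferase complex moves it as a block onto asparagine residues. Glucosidases trim the transferred glycan, and Golgi mannosyltransferases extend it into the large mannose chains of the yeast cell wall. In O-mannosylation the Pmt enzymes of the endoplasmic reticulum attach a mannose to serine or threonine. Both routes draw on GDP-mannose, directly or through dolichol phosphate mannose.

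H2B K123R replicate 1 stood apart from the other arrays. Log2 signals of that array correlated at 0.958 and 0.969 with the other arrays of its strain, which correlated at 0.991 with each other, and the wild-type arrays correlated at 0.992 to 0.995. The 99th percentile of its signal was 8652, against 10221 to 11395 elsewhere. Over all 5656 genes it gave the highest of the 3 mutant values for 62.7% of genes, and over the glycosylation genes for 33 of 42 (78.6%). The H2B gene HTB1 had a mean of 5836 ± 358 in wild type, and of 4560 ± 458 in the mutant (mean ± SD over 3 arrays, as for all such pairs of values that follow). A point mutation leaves the HTB1 level uninformative about the label. HTB2, the other H2B gene, had means of 6.78 in wild type and 4.14 in the mutant. Its highest value on any array was 11.3, under the 18.3 that the mouse control probe sets reached. HTB2 therefore read at background in both strains, and whether either strain carries an intact HTB2 was not tested. The labels name no mating type. The a-cell receptor gene STE2 read 1365 and 1115 in the groups and the alpha-cell receptor gene STE3 read 38.0 and 46.7. Among other a-cell genes BAR1 read 1846 and 1395 (log2 difference -0.40, limma adjusted p = 0.0339), STE6 573 and 501 and AGA2 519 and 457. The alpha-cell gene SAG1 read 163 and 214. Of these marker genes only BAR1 had an adjusted p under 0.05.

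The comparison asked how the loss of this H2B lysine went with transcript levels once cells had resumed growth. Of the 42 glycosylation genes, 3 fell and 1 rose in H2B K123R, and 38 were not called (limma, adjusted p threshold 0.05). SEC53 and PMI40, which act in sequence on the way to GDP-mannose, fell 1.31-fold and 1.25-fold, and MNN2, a mannosyltransferase that begins the side branches of Golgi glycans, fell 1.46-fold. ALG13, which encodes the catalytic subunit of the second step of oligosaccharide assembly, rose 1.55-fold. Over all genes 6.06% were called higher and 2.92% lower. The rise of 1 in 42 and the fall of 3 in 42 are therefore small counts on either side of these shares, and they say nothing particular about the list. The median log2 difference of the 42 genes was -0.03, and that of all genes was 0.08. The range ran from -0.54 for MNN2 to 0.63 for ALG13. Folds and differences were computed from log2(signal + 16), so the change of a dim gene is understated. In RNA from whole cultures, fewer cells with a transcript and less of it per cell cannot be told apart.

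The 4 calls depended on which arrays were used and on the model. None of the 4 passed when any wild-type array or H2B K123R replicate 3 was left out, in fits that called 22 to 70 of all 9275 probe sets in place of 620 (6.68%). With replicate number added to the model none of the 4 passed either, and 307 of all probe sets were called. SEC53 passed without H2B K123R replicate 2, together with PSA1. All 4 passed without H2B K123R replicate 1, where OST6 was called lower as well and the total was 1023. In that fit 8.24% of all genes were called higher and 6.08% lower. The direction of the 4 differences was the same in every alternative.

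**Figure D1:**
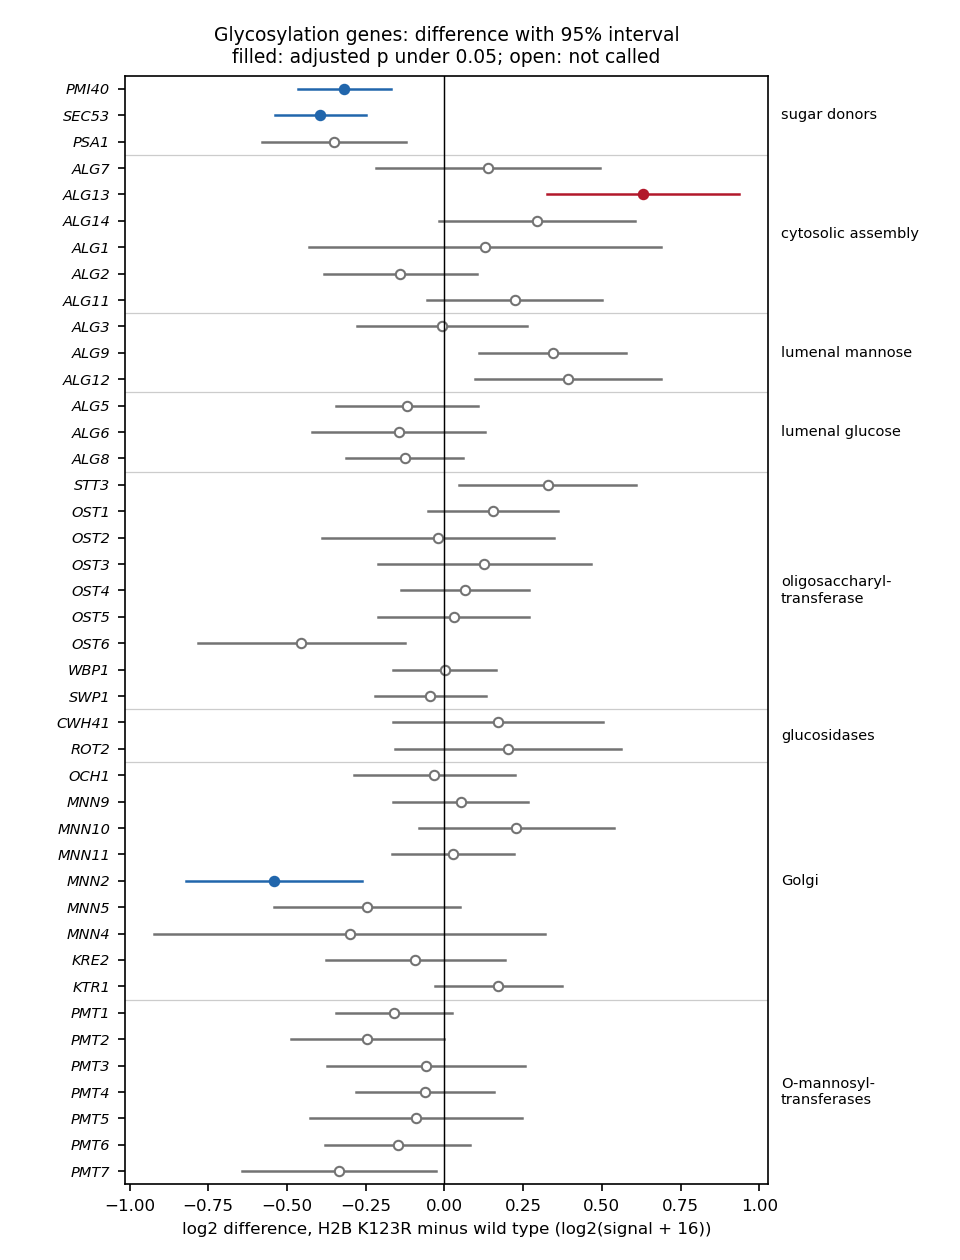
The points give the log2 difference of H2B K123R minus wild type for each of the 42 genes, on the log2(signal + 16) scale, and the lines its 95% interval from the limma fit; filled points passed at an adjusted p under 0.05 and open points did not. SEC53, PMI40 and MNN2 lie to the left and ALG13 to the right as the filled points, and the 7 PMT genes all lie left of zero with intervals that mostly include it.

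The 3 sugar donor genes lead from fructose phosphate to GDP-mannose, from which dolichol phosphate mannose is also made. SEC53, which encodes phosphomannomutase, read 6337, 6046 and 6133 in wild-type replicates 1, 2 and 3 and 4579, 4742 and 4758 in H2B K123R replicates 1, 2 and 3. Its log2 difference was -0.39 (SE 0.06, limma adjusted p = 0.0209), and the lowest wild-type value stood well above the highest mutant value. PMI40, which encodes the phosphomannose isomerase that makes mannose phosphate, read 2632, 2545 and 2684 in wild type and 2091, 2077 and 2129 in H2B K123R. The groups did not overlap and each was tight, with SDs of 70.2 and 27.0, and the log2 difference was -0.32 (SE 0.06, adjusted p = 0.0355). PSA1, the GDP-mannose pyrophosphorylase gene that completes the route, read 5564, 6037 and 5355 in wild type and 4213, 4970 and 4133 in H2B K123R. Its log2 difference of -0.35 was of similar size with a wider error (SE 0.10), and it did not pass (adjusted p = 0.0795), although the groups did not overlap.

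Every array placed the sugar donor genes on the same side. Their mean log2 signal was 12.13 to 12.15 on the wild-type arrays and 11.75, 11.84 and 11.77 in H2B K123R replicates 1, 2 and 3. The median of the 3 differences was -0.35 on all arrays and -0.32 without H2B K123R replicate 1. Among genes whose products use GDP-mannose, DPM1 and VRG4 were named here for their place in the route, and their differences were smaller. The genes of the cytosolic mannosyltransferases, which also use it directly, went both ways, with 0.13 for ALG1, -0.14 for ALG2 and 0.22 for ALG11. DPM1, which makes dolichol phosphate mannose, read 1982 ± 73.2 and 1684 ± 226 (log2 difference -0.24, adjusted p = 0.230). VRG4, the transporter that carries GDP-mannose into the Golgi, read 3030 ± 79.4 and 2662 ± 212 (-0.19, adjusted p = 0.204). Quantile normalization took the sugar donor differences to -0.28 for SEC53, -0.25 for PSA1 and -0.34 for PMI40.

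**Figure D2:**
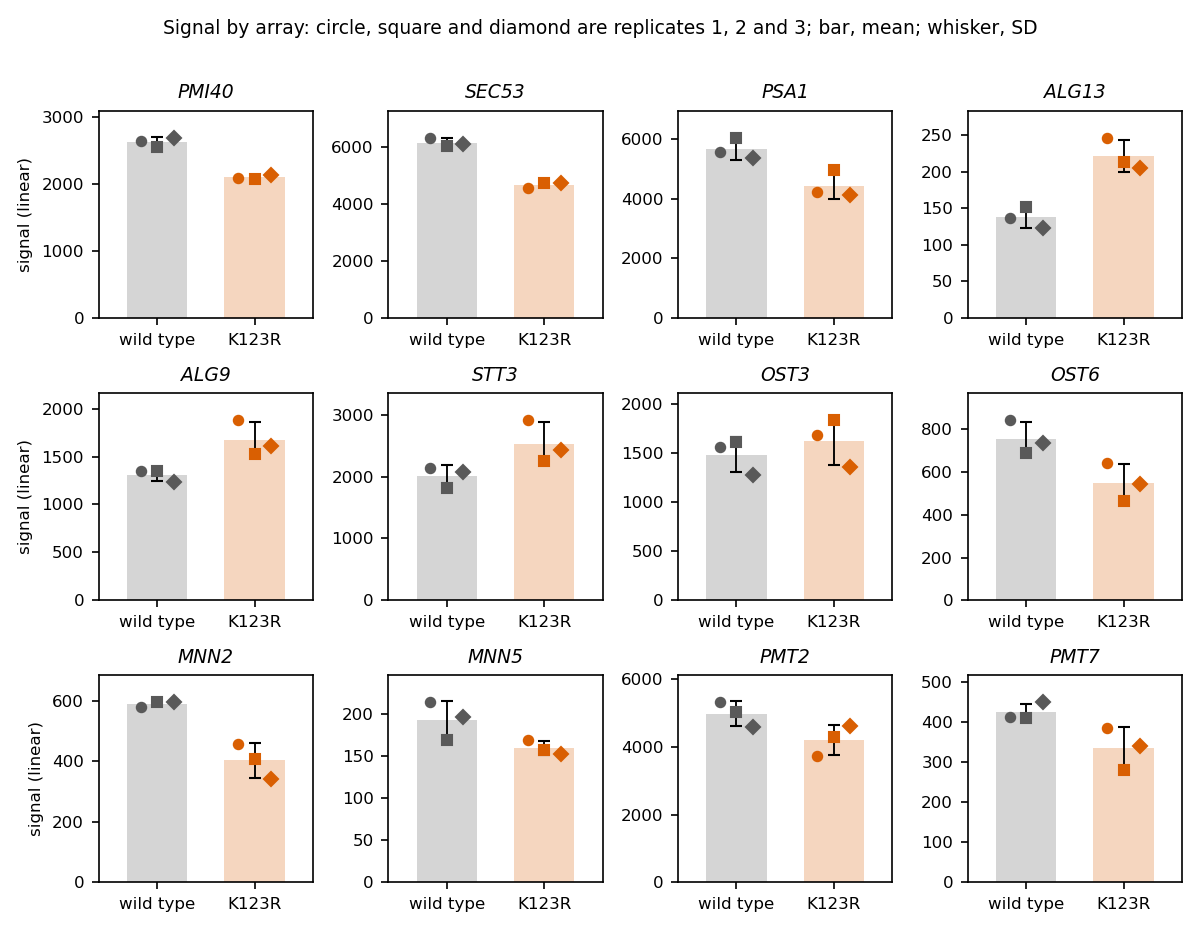
Each panel gives the linear signal of a gene on the 3 wild-type and 3 H2B K123R arrays, with symbols for replicates 1, 2 and 3, bars for the means and whiskers for the SD. SEC53 and PMI40 form separate tight groups, ALG13 and MNN2 separate with more spread in H2B K123R, and the OST3 groups overlap while the OST6 groups do not.

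Assembly of the lipid-linked oligosaccharide on the cytosolic face uses ALG7, ALG13, ALG14, ALG1, ALG2 and ALG11. Of these 6 genes ALG13 rose and none fell. ALG13 read 137, 152 and 124 in wild type and 246, 213 and 206 in H2B K123R, so that every mutant array lay above every wild-type array. The log2 difference was 0.63 (SE 0.13, limma adjusted p = 0.0382). Its partner ALG14, which anchors the Alg13 protein to the membrane, read 190, 201 and 188 in wild type and 284, 211 and 231 in H2B K123R. These groups did not overlap either, yet the difference of 0.29 had a 95% interval of -0.02 to 0.61 and did not pass (adjusted p = 0.225).

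The other cytosolic steps were not called. ALG7, which starts the pathway and is the target of tunicamycin, had means of 486 and 542. The genes of the cytosolic mannosyltransferases had means of 267 and 303 for ALG1, 355 and 322 for ALG2 and 957 and 1126 for ALG11. ALG1 shows how far a single array reached. It read 308, 246 and 248 in wild type and 428, 242 and 239 in H2B K123R, and its log2 difference went from 0.13 to -0.14 without H2B K123R replicate 1. All 6 genes had their highest mutant value on that array, and the median difference of the 6 went from 0.18 to 0.06 without it. The median of all genes went from 0.08 to 0.03. The part of that array in these differences was not tested beyond leaving it out.

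In the lumen ALG3, ALG9 and ALG12 add mannose from dolichol phosphate mannose, and none of the 3 was called. ALG9 read 1350, 1354 and 1234 in wild type and 1881, 1530 and 1613 in H2B K123R (log2 difference 0.34, SE 0.10, limma adjusted p = 0.0900). ALG12 read 427, 377 and 315 in wild type and 515, 485 and 475 in H2B K123R (0.39, SE 0.12, adjusted p = 0.113). Neither pair of groups overlapped, and H2B K123R replicate 1 was highest in both genes.

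The probe sets of ALG3 disagreed. The brightest, of a type that can share probes with other transcripts, read 504 ± 30.9 and 502 ± 62.2, with a difference of -0.01. The probe set with no such suffix read 542, 530 and 524 in wild type and 325, 440 and 411 in H2B K123R, without overlap, and its difference of -0.44 did not pass (adjusted p = 0.0883). The third, of a type with an incomplete probe choice, was dim at 19.6 and 39.2, close to the mouse control probe sets, which reached 18.3. No direction is therefore given for ALG3.

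The 3 genes for adding glucose all had negative differences of similar size and none was called. ALG5, which makes dolichol phosphate glucose, had means of 761 and 701, and ALG6, which adds the first glucose, had means of 421 and 381. ALG8, which adds the next, read 689, 663 and 684 in wild type and 658, 609 and 595 in H2B K123R. Its groups did not overlap by a small margin, and the difference was -0.13 (95% interval -0.31 to 0.06, adjusted p = 0.364). The 3 differences lay between -0.15 and -0.12. DIE2, whose product adds the last glucose, had means of 394 and 388.

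The oligosaccharyltransferase is a complex with the catalytic subunit Stt3, several structural subunits and, in each copy, either Ost3 or Ost6, which are related thioredoxin-like subunits. None of its 9 genes was called by limma. An unadjusted p under 0.05 was found for STT3 (higher) and OST6 (lower), against 20.6% of all genes higher and 10.1% lower. Of the 9 differences 7 lay within 0.25 of zero, against 57.2% of all genes. For 7 of the 9 genes the 95% interval lay within 0.5 of zero on both sides, against 40.3% of all genes. Of the structural subunits WBP1 gave the closest pair of means, 3717 ± 193 and 3715 ± 84.2 (difference 0.00, 95% interval -0.16 to 0.16). SWP1 had means of 2738 and 2656, OST1 of 3417 and 3800, and OST2 of 197 and 195. The small subunit genes OST4 and OST5 had means of 2009 and 2109 and of 1613 and 1653.

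STT3 and OST6 lay at opposite ends of the complex. STT3 read 2141, 1814 and 2069 in wild type and 2914, 2247 and 2438 in H2B K123R, without overlap (log2 difference 0.33, SE 0.12, limma adjusted p = 0.151). OST6 read 843, 690 and 737 in wild type and 643, 467 and 542 in H2B K123R, also without overlap (-0.45, SE 0.14, adjusted p = 0.103). OST3 overlapped between the groups, at 1565, 1617 and 1281 in wild type and 1689, 1839 and 1361 in H2B K123R, with a difference of 0.13 (95% interval -0.21 to 0.46).

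The alternative subunits were also compared within each array, as a log2 ratio of OST6 to OST3, which removes what both share on an array. The ratio was -0.96 ± 0.22 in wild type and -1.54 ± 0.35 in H2B K123R. It was lower on every mutant array than on every wild-type array, and the change was -0.58. A two-sided exact permutation test gave p = 0.1, the smallest that 3 against 3 arrays allow, and 0.133 after Benjamini-Hochberg adjustment over the 4 paralogue pairs compared. The ratio between 2 probe sets has no meaning as a ratio of transcript numbers, so only its change between the strains can be read. OST6 itself was called lower in 4 alternatives, namely quantile normalization, cyclic loess, array weights and the fit without H2B K123R replicate 1.

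The glucosidases that trim the transferred glycan are encoded by CWH41 (glucosidase I) and ROT2 (the catalytic subunit of glucosidase II). ROT2 read 311, 357 and 324 in wild type and 470, 320 and 370 in H2B K123R (log2 difference 0.20, limma adjusted p = 0.447). CWH41 read 770, 702 and 785 and then 1024, 709 and 837 (0.17, adjusted p = 0.491). The groups overlapped in both, and H2B K123R replicate 1 was the highest array. Without it the median of the 2 differences went from 0.19 to 0.05, and that of all genes from 0.08 to 0.03.

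**Figure D3:**
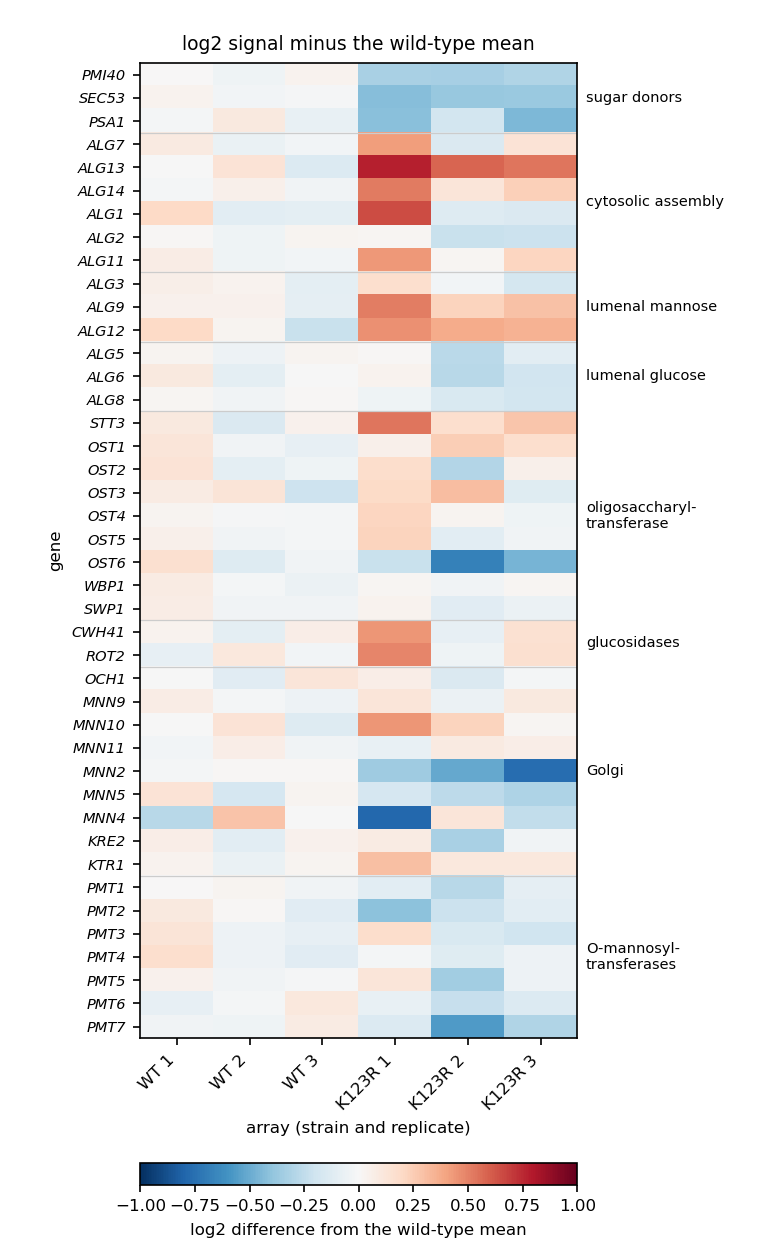
Each cell gives the log2 signal of a gene on an array minus the wild-type mean of that gene, from blue (lower) to red (higher), with the 42 genes in rows by role and the 6 arrays in columns. The sugar donor rows are blue on all 3 mutant arrays, while many rows of oligosaccharide assembly are reddest on the array of K123R replicate 1.

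Of the 9 Golgi genes MNN2 fell and none rose. Och1 starts the outer chain and Mnn9 takes part in its extension, as do Mnn10 and Mnn11, which share a complex. OCH1 had means of 329 and 321 and MNN9 of 501 and 520. MNN10 read 724, 801 and 662 in wild type and 991, 852 and 738 in H2B K123R, and MNN11 read 795, 847 and 790 and then 769, 865 and 847. Neither was called, with differences of 0.23 (95% interval -0.08 to 0.54) and 0.03 (-0.17 to 0.22). The small differences of MNN9 and MNN11 turned negative after quantile normalization and after cyclic loess. The change in the MNN10 to MNN11 ratio was 0.20 (exact permutation p = 0.4).

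The side branches of the outer chain are begun by Mnn2 and lengthened by Mnn5, a related enzyme. MNN2 read 581, 595 and 595 in wild type and 458, 409 and 342 in H2B K123R. The wild-type values were nearly equal, the mutant values were spread over a wider range, and the groups lay far apart (log2 difference -0.54, SE 0.12, limma adjusted p = 0.0455). MNN5 read 213, 169 and 196 in wild type and 169, 157 and 152 in H2B K123R, and the highest mutant value almost reached the lowest wild-type value. Its difference of -0.25 (95% interval -0.54 to 0.05) did not pass (adjusted p = 0.273). The log2 ratio of MNN2 to MNN5 was 1.54 ± 0.17 in wild type and 1.25 ± 0.14 in H2B K123R, a change of -0.30, with an exact permutation p of 0.1 and an adjusted p of 0.133.

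MNN4, whose product promotes the addition of mannosylphosphate to glycans, varied most between replicates. Both of its probe sets are of the type that can share probes with other transcripts. The brighter one read 136, 209 and 167 in wild type and 91.1, 185 and 140 in H2B K123R. The other read 22.9 and 16.8 on average, near the mouse controls. The difference of -0.30 for the brighter probe set had a 95% interval of -0.92 to 0.32. KRE2 and KTR1 encode related mannosyltransferases that act on O-linked and N-linked glycans. KRE2 read 1274, 1128 and 1255 in wild type and 1286, 971 and 1186 in H2B K123R (-0.09, adjusted p = 0.666). KTR1 read 1069, 995 and 1060 and then 1285, 1123 and 1122, without overlap (0.17, adjusted p = 0.267). The log2 ratio of KRE2 to KTR1 was 0.22 ± 0.04 in wild type and -0.04 ± 0.15 in H2B K123R, a change of -0.26 with an exact permutation p of 0.1 and an adjusted p of 0.133.

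None of the 7 protein O-mannosyltransferase genes was called. All 7 differences were negative, from -0.33 for PMT7 to -0.06 for PMT3, with a median of -0.15. Of all 5656 genes, 2240 had a negative difference. An unadjusted p under 0.05 was found for 2 of the 7 PMT genes, PMT2 and PMT7, against 10.1% of all genes in that direction. The 7 differences were negative under each scaling tried, but those of PMT3, PMT4 and PMT5 turned positive in fits with an array left out. PMT7, named for its sequence relation to the family, read 413, 411 and 450 in wild type and 385, 281 and 341 in H2B K123R, without overlap (SE 0.13, limma adjusted p = 0.173). PMT7 was called lower with cyclic loess and with array weights, which called 923 and 2885 of all probe sets. Pmt1 and Pmt2 form the main heterodimer of the family. PMT1 read 2008, 2038 and 1955 in wild type and 1855, 1644 and 1876 in H2B K123R, also without overlap (-0.16, adjusted p = 0.258). PMT2 read 5315, 5021 and 4593 in wild type and 3731, 4278 and 4609 in H2B K123R, where the highest mutant value passed the lowest wild-type value (-0.24, adjusted p = 0.197).

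The other members overlapped between the groups. PMT4, whose product acts as a homodimer, read 3300, 2829 and 2706 in wild type and 2894, 2701 and 2837 in H2B K123R. PMT5, of the Pmt1 subfamily, read 234, 221 and 225 and then 248, 174 and 219. PMT3 and PMT6, of the Pmt2 subfamily, read 375, 330 and 322 against 388, 305 and 296, and 372, 389 and 427 against 374, 334 and 357. For 6 of the 7 genes the 95% interval lay within 0.5 of zero on both sides, against 40.3% of all genes. PMT1 and PMT5 are next to each other in the gene order of the R64 assembly, which supplied names and order only. MNN5 and MNN11, and KTR1 and OST2, are separated by 2 genes each. The differences of these neighbours were -0.16 and -0.09, -0.25 and 0.03, and 0.17 and -0.02.

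Groups that do not overlap were more frequent than calls. Every H2B K123R array lay below every wild-type array for 9 of the 42 genes and above for 6, while 13.8% of all genes did the former and 25.5% the latter. An unadjusted p under 0.05 was found for 7 genes with lower and 4 with higher signal in H2B K123R, against 10.1% and 20.6% of all genes. For 30 of the 42 genes the difference was within 0.25 of zero, and for 26 the 95% interval lay within 0.5 on both sides, against 57.2% and 40.3% of all genes.

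A further 36 genes of glycosylation outside the rule covered dolichol phosphate, UDP-GlcNAc, lectins and trimming enzymes of the endoplasmic reticulum, and other Golgi enzymes. MNN1 fell and none rose, where 2.92% of all genes were called lower and 6.06% higher. Called counts this small say nothing particular about the list. Lower signal with an unadjusted p under 0.05 was found for 9 of the 36 and higher signal for 3, against 10.1% and 20.6% of all genes. The groups did not overlap for 13 genes with lower and 4 with higher signal, against 13.8% and 25.5%. Whether these counts differ from those of all genes was not tested. MNN1, which encodes the mannosyltransferase that caps the side branches, read 465, 474 and 474 in wild type and 343, 313 and 324 in H2B K123R (log2 difference -0.51, SE 0.08, limma adjusted p = 0.0230). The groups were tight and far apart. Like the 4 calls above, it was lost when any wild-type array or H2B K123R replicate 3 was left out. The median of the list was -0.09, with 22 negative and 14 positive differences, against 2240 negative and 3416 positive over all 5656 genes. Of the 14 Golgi mannosyltransferases in it, 13 had their highest mutant value in H2B K123R replicate 1. The median of the 14 went from 0.00 to -0.15 without that array, and that of all genes from 0.08 to 0.03. Without that array 5 genes of the 36 were called lower and 1 higher, in the fit where 6.08% of all genes were called lower and 8.24% higher.

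Of 22 genes for glycosylphosphatidylinositol (GPI) anchors, which also carry mannose, none was called. Lower signal with an unadjusted p under 0.05 was found for 4 and higher signal for none, against 10.1% and 20.6% of all genes. The smallest p was that of GPI14, a mannosyltransferase gene, which read 486, 454 and 410 in wild type and 362, 298 and 305 in H2B K123R (-0.47, limma adjusted p = 0.0619). The groups did not overlap. Without H2B K123R replicate 1, GPI14 and 1 other gene, GPI16, were called lower, 2 of 22 where 6.08% of all genes were. The median of the list was -0.03 on all arrays and -0.17 without that array, and that of all genes was 0.08 and 0.03.

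Of 18 genes for protein folding and quality control in the endoplasmic reticulum, where glycosylation takes place, none was called. Higher signal with an unadjusted p under 0.05 was found for 2 and lower signal for 1, against 20.6% and 10.1% of all genes. ERO1, a thiol oxidase gene with the smallest p, read 143, 126 and 130 in wild type and 199, 172 and 160 in H2B K123R (0.37, limma adjusted p = 0.133). The chaperone gene KAR2, a standard marker of the unfolded protein response named here outside the rule, read 6720 ± 348 and 6512 ± 161 (-0.04, 95% interval -0.21 to 0.12). The median of the list was 0.04.

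**Figure D4:**
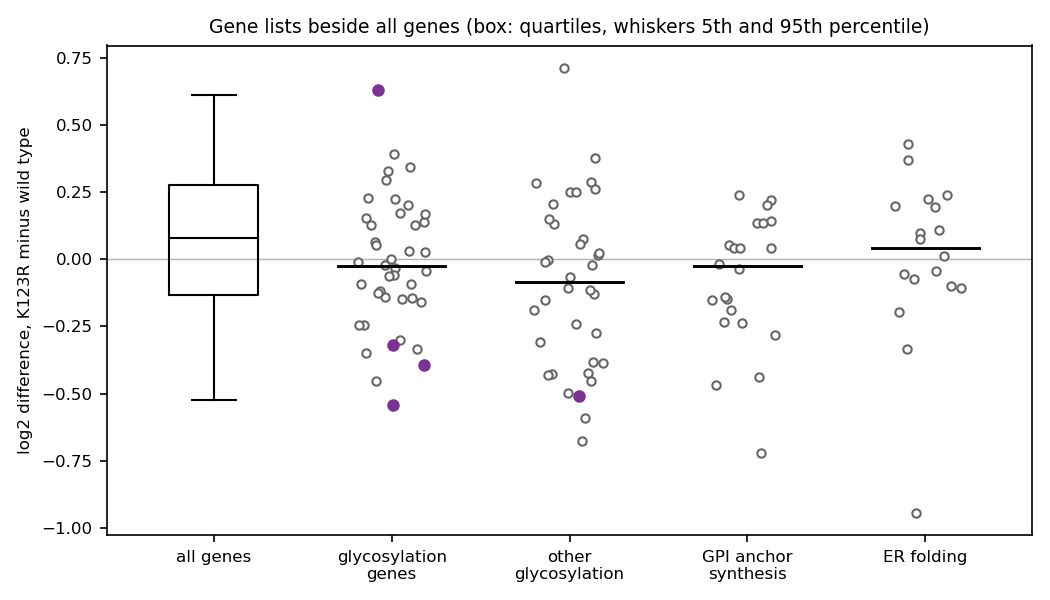
Points give the log2 difference of H2B K123R minus wild type for the genes of each list, filled where the adjusted p was under 0.05, with a line at the median, beside a box of all 5656 genes. The medians of the 4 lists, -0.03, -0.09, -0.03 and 0.04, lie below the median of all genes, 0.08.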

How the data were processed

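RNA of 6 yeast cultures was measured on 6 Affymetrix S98 arrays, grouped by the mutation in the labels, with replicate numbers from the titles. The authors deposited 1 linear intensity for each probe set and array, already scaled: the mean of every array after trimming 2% at each end was 499.8. The sources used here do not name the summarization software. The labels do not say whether replicates had separate starter cultures, so p-values may reflect technical spread only. Precision is limited by the number of arrays.

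Of 9335 probe sets, 60 controls were set aside. The platform annotation named 1 gene for 6504 of the tested probe sets, several for 328 and none for 2443. Log2(signal + 16) was tested with limma 3.58.1 in R 4.3.3 (two-sided, empirical Bayes with a trend in variance, Benjamini-Hochberg over the 9275 probe sets, threshold 0.05). The procedure was tested on simulated data with independent noise and no outlying array. That test does not cover an array such as H2B K123R replicate 1. Paralogue ratios had exact permutation tests. The members and lists were chosen with earlier results of these data known. Values on every array are given for called members, for the member with the smallest p in each role and for the paralogues, and other genes so treated were chosen after their values were seen. The other lists gave their called member or, failing that, the one with the smallest p. Alternatives changed the pseudocount, scaling, filter, weights, variance model, probe set choice and arrays used.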

Additional observations from a re-analysis of the deposited data

How the results depend on the processing

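The 4 called glycosylation genes kept their direction in every alternative and their calls with pseudocounts of 1 and 64, every scaling, the filter on dim probe sets, array weights and the mean of probe sets. Array weights called 7 genes higher and 9 lower (2885 of all probe sets), cyclic loess called 5 lower and the fit without a variance trend 1 lower, with PMI40 and MNN2 lost. Same-numbered arrays deviated together with correlations of 0.32, 0.38 and 0.05. The labels name no batch, and whether replicate numbers pair the arrays was not tested. With the replicate block 0 of the 42 genes were called higher and 0 lower, and 307 of all probe sets. With single arrays left out, total calls ran from 22 to 1023, glycosylation genes called higher from 0 to 1 and lower from 0 to 4, and the median from -0.08 to 0.02.

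For the other 36 glycosylation genes (0 higher and 1 lower), calls higher numbered 1 with quantile normalization, cyclic loess, median centring, the filter, the replicate block and the mean of probe sets, and 3 with array weights. Calls lower numbered 2 with a pseudocount of 1 and with the mean of probe sets, 4 with quantile normalization, 5 with cyclic loess, 3 with median centring, the filter and no trend, 13 with array weights and 0 with the replicate block. With arrays left out they ran from 0 to 1 and from 0 to 5. GPI genes called lower numbered 3 with quantile normalization, 2 with cyclic loess, 1 with median centring and the filter, 5 with array weights (2 higher) and 0 to 2 with arrays left out. Folding genes called lower numbered 1 with quantile normalization and cyclic loess, 2 with array weights (2 higher) and 0 to 1 with arrays left out. Totals over all probe sets moved as well, from 620 to 752 with quantile normalization, 923 with cyclic loess and 761 with median centring. They were 628 with a pseudocount of 1, 614 without a trend and 594 with the filter, which tests fewer probe sets. The cause of these changes was not tested.

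Signs changed in 34 of the fits of single genes, over 15 genes, none of them called in either fit. With array weights these were ALG1 (-0.0848), OST2 (0.0414), OST3 (-0.0280), OST4 (-0.0242) and OST5 (-0.0240). With quantile normalization and cyclic loess they were OST5 (-0.000457 and -0.00695), MNN9 (-0.0400 and -0.0682) and MNN11 (-0.0479 and -0.0736). WBP1 changed with median centring (-0.0201) and ALG3 with the mean of probe sets (0.0567). With arrays left out the ranges were ALG7 -0.00211 to 0.278, ALG1 -0.136 to 0.264, ALG3 -0.0987 to 0.0729, OST2 -0.120 to 0.115, OST4 -0.00841 to 0.121, OST5 -0.0678 to 0.0952, WBP1 -0.0303 to 0.0413, OCH1 -0.0891 to 0.0267, MNN11 -0.00526 to 0.0782, KRE2 -0.179 to 0.0205, PMT3 -0.176 to 0.00951, PMT4 -0.120 to 0.0219 and PMT5 -0.198 to 0.0380.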

Other observations

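HAC1 encodes the transcription factor of the unfolded protein response and was chosen for description after its values were seen. In every probe set but the dimmest it read lowest on the array of H2B K123R replicate 1. Its brightest probe set by mean log2 signal read 2982, 2726 and 2834 in wild type and 634, 2757 and 1810 in H2B K123R replicates 1, 2 and 3. Another probe set read 3417, 4038 and 3729 in wild type and 15.5, 3027 and 2780 in H2B K123R. The third read 1158, 1302 and 1249 and then 0.680, 1073 and 836, so on the array of replicate 1 it was no brighter than the mouse controls. The fourth read 723, 632 and 631 and then 131, 739 and 353, and the fifth stayed under 3.2 on every array. None of the 5 was called, with limma adjusted p between 0.285 and 0.975. KAR2 read 6367 on the array of replicate 1, against 6484 and 6685 on the other mutant arrays. GPI19 also read low on that array, at 2.82 against 40.4 and 39.3.

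Among the Golgi mannosyltransferases outside the rule, KTR4 and KTR7 had the largest differences in each direction, and both were named after their values were seen. KTR4 read 644, 547 and 592 in wild type and 1275, 820 and 907 in H2B K123R (log2 difference 0.71, limma adjusted p = 0.0568). KTR7 read 427, 439 and 415 in wild type and 344, 245 and 210 in H2B K123R (-0.68, adjusted p = 0.0701). Neither pair of groups overlapped. KTR4 passed in 9 and KTR7 in 6 of 16 alternatives, both without H2B K123R replicate 1. YND1, an apyrase gene that serves Golgi nucleotide sugar transport, read 222, 193 and 225 and then 156, 119 and 135 (-0.59, adjusted p = 0.0521) and passed in 9 of 16.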
